A study of Mus musculus with 6 samples.

Results

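The genes examined build and repair V(D)J junctions. They were Rag1, Rag2, Dntt, Xrcc5, Xrcc6, Prkdc, Dclre1c, Xrcc4, Lig4 and Nhej1. These are 10 of the 22367 protein-coding genes of GENCODE M1 (mouse build mm9), taken by name for their role, with earlier results of these data known. For each gene a window was taken from 30 kb before the gene body to 30 kb after it, and all entries of 3 chromatin immunoprecipitation sequencing (ChIP-seq) lists that touched it were read. The lists were made from pre-B cells that carry RAG-/- alleles (the methods of the study name Rag1-/-) and a rearranged IgM transgene (µ+), from C57BL/6 mice of both sexes aged 6 to 14 weeks. The transgene supplies a heavy chain to cells that cannot recombine their own genes, so these are pre-B cells of one engineered kind rather than pre-B cells of normal mice. Each list came from 1 library, so there is no replicate check, no condition to compare, and no p-value in what follows. The depth of the libraries is unknown because the lists hold no counts, so no interval is given.

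V(D)J recombination assembles antigen receptor genes in developing lymphocytes. The RAG1 and RAG2 proteins form the recombinase that cuts DNA beside V, D and J segments, leaving hairpin ends at the coding side. The Ku dimer (Ku80 from Xrcc5, Ku70 from Xrcc6) binds the broken ends and recruits the kinase DNA-PKcs (Prkdc), which activates the hairpin-opening nuclease Artemis (Dclre1c). TdT (Dntt) adds untemplated nucleotides, and DNA ligase IV (Lig4) seals the junction with XRCC4 (Xrcc4) and XLF (Nhej1). The Rag genes and Dntt are restricted to lymphocyte precursors, whereas the joining factors serve break repair in most cells. Acetylation of histone H3 at lysine 27 (H3K27ac) marks active promoters and enhancers, trimethylation at lysine 4 (H3K4me3) marks mainly promoters, and Pax5 is the transcription factor that holds B cell identity.

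The H3K27ac list held 69345 peaks with a median width of 428 bp and scores from 3.06 to 330.0 (median 8.52). The Pax5 list held 15445 peaks called against an input sample, with a median width of 965 bp and scores from 87.9 to 3214 (median 207). The H3K4me3 list gave 25 bp bins with no score, and joining them across gaps of up to 100 bp made 17979 regions, 1025 bp wide at the median. A score orders peaks inside its own list and cannot be compared between lists. As a check of the cells, all 5 pre-B marker genes read (Cd79a, Cd79b, Vpreb1, Igll1 and Blnk) had both H3K27ac and Pax5 within 1 kb of a start, and 4 had H3K4me3, Igll1 being without it. None of 5 T cell genes or 3 genes of other tissues had an entry of any list there. Of 4 myeloid genes, Mpo and Csf3r had H3K27ac and Cebpa had H3K4me3, and of 3 erythroid genes, Klf1 had both histone marks and Hba-a1 had H3K27ac. The part of other cell types in the values below was not tested.

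Stretches of mm9 sequence are shown here because they carry the entries described first, the starts of the Rag genes and the Pax5 peaks beside them. The start sequences are the 250 bases before the RefSeq start, read in the direction of transcription, chr2:101489690-101489939 (minus strand) for Rag1 and chr2:101464619-101464868 (plus strand) for Rag2. The others are the central 300 bases of Pax5 peaks, at chr2:101488594-101488893 (minus strand) in the first intron of Rag1, chr2:101490781-101491080 (minus strand) before Rag1, and chr2:101438916-101439215 (plus strand) far upstream of Rag2. Capitals mark matches to 7 short motifs that were searched on both strands: GCGTGAC (Pax5 core), CAGCTG and CAGGTG (E boxes bound by E proteins), GTAAACA (Foxo factors), CCCNNGGG (Ebf1), AGGAAGT (ETS factors) and TGGGAA (Ikaros).
Rag1 before the start: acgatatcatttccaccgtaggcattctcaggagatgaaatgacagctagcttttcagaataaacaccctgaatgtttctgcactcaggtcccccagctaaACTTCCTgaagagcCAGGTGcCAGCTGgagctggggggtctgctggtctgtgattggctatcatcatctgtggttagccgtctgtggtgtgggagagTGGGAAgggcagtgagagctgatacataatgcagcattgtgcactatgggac
Rag2 before the start: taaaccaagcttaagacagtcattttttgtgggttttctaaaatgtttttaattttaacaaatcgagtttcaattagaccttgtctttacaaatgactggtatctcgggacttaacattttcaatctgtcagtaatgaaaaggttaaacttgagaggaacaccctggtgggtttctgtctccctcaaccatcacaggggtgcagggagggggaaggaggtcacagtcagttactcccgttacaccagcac
Pax5 peak in the Rag1 intron: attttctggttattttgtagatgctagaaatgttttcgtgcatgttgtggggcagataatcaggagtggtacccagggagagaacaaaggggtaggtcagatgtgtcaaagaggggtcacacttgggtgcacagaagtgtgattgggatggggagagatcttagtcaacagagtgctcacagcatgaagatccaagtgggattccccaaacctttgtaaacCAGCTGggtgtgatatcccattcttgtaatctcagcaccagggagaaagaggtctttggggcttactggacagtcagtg
Pax5 peak before Rag1: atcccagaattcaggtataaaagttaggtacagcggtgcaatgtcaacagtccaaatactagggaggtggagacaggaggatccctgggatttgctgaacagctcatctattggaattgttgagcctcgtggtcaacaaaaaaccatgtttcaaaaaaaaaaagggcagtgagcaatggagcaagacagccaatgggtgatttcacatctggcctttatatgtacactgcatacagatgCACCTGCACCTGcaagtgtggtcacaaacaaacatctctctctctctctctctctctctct
Pax5 peak upstream of Rag2: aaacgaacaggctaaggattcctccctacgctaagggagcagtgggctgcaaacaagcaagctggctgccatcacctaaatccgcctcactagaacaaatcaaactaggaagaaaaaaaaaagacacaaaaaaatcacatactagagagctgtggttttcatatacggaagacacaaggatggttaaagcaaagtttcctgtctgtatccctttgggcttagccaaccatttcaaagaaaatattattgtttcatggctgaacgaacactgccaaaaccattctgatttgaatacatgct

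The Rag1 stretch held, in order, an ETS match, then CAGGTG followed closely by CAGCTG, and last an Ikaros match. The Rag2 stretch and the peak upstream of Rag2 held none of the 7 motifs. The intronic Rag1 peak held 1 CAGCTG, and the peak before Rag1 held CAGGTG at 2 adjacent places. A match is a run of letters and not a binding site, and its absence from a window says nothing about the factor.

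Most members carried both histone marks at a start, and Pax5 was listed at fewer of them. An H3K27ac peak lay within 1 kb of an annotated start of 9 of the 10 genes, all but Nhej1, against 49.0% of all coding genes. An H3K4me3 region lay there in 8, all but Dntt and Nhej1, against 53.0%. A Pax5 peak lay there in 6 (Rag1, Rag2, Xrcc6, Lig4, Dclre1c and Prkdc), against 38.1%. The same 6 genes had entries of all 3 lists at a start, against 34.9% of coding genes. In the whole windows, H3K27ac was listed for 10 members against 71.7% of genes, H3K4me3 for 10 against 69.1%, and Pax5 for 9 against 62.5%. Xrcc5 was the gene without any Pax5 peak. The windows of Rag1 and Rag2 overlap, and over the 9 separate windows (1381.9 kb) there were 104 H3K27ac peaks, 31 H3K4me3 regions and 25 Pax5 peaks.

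**Figure D1:**
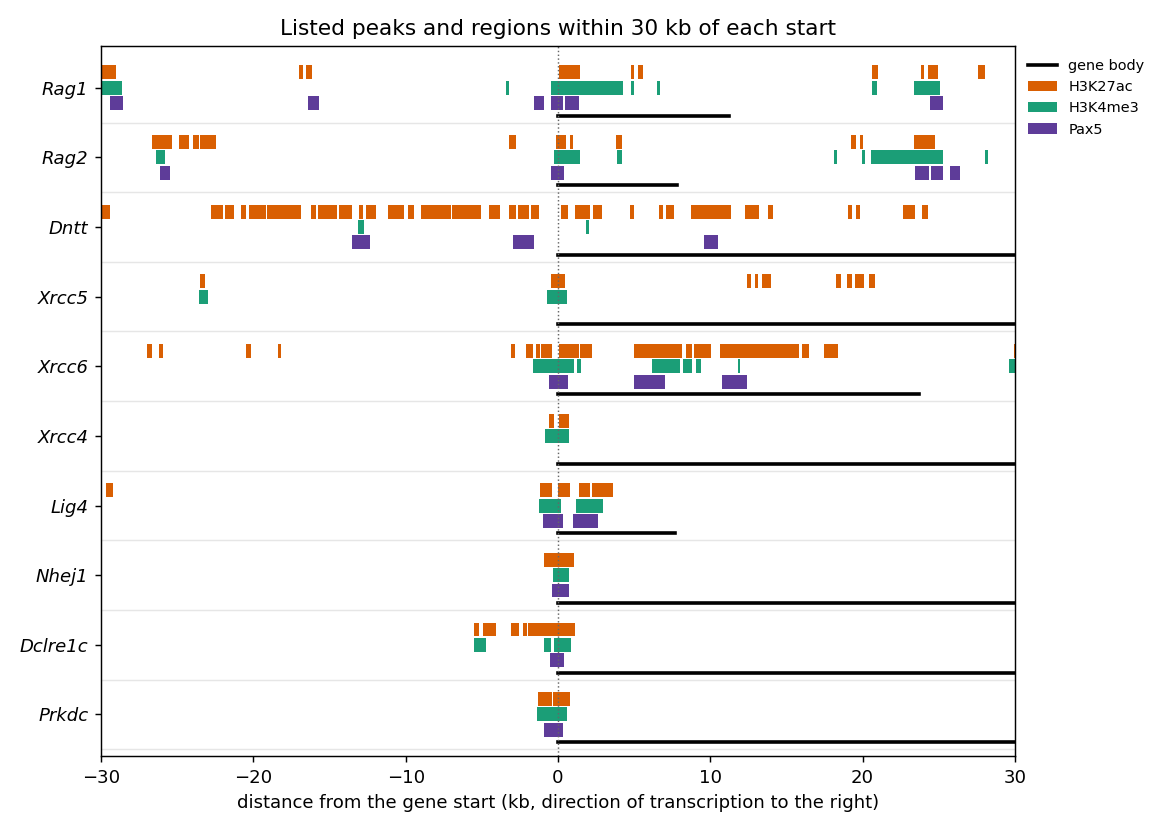
Entries of the 3 lists within 30 kb of the start of each of the 10 genes, 1 gene a row, with distance from the start in kb on the horizontal axis and transcription running to the right (start from RefSeq placed on mm9, and from GENCODE for Prkdc). Bars are H3K27ac peaks (orange), H3K4me3 regions (green) and Pax5 peaks (purple), and the black line is the gene body. H3K4me3 lies on or beside this start in all genes but Dntt, around which H3K27ac peaks are densest.

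Rag1 and Rag2 sit tail to tail on chromosome 2, Rag1 at chr2:101478439-101489658 on the minus strand and Rag2 at chr2:101464875-101472685 on the plus strand. Both windows together held 14 H3K27ac peaks, 8 H3K4me3 regions and 7 Pax5 peaks, and the gene body of the transcript B230118H07Rik, which runs on the minus strand from the Rag1 start and spans Rag2, lies over much of the locus. Its most upstream start is the RefSeq start of Rag1 itself, so the entries there cannot be assigned to either alone.

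At the start of Rag1, H3K4me3 formed 1 region of 4700 bp, reaching 4240 bp into the gene. It ranked 59 of 17979 regions by width and was wider than the widest region at the start of 99.5% of the 11848 genes that had one, whose median was 1480 bp. Its width was the same when only touching bins were joined. By contrast the H3K27ac peak at Rag1 had a score of 22.13, above 35.0% of genes with a peak at a start and below their median of 31.7. It was 1369 bp wide and began 88 bp inside the gene.

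There were 3 Pax5 peaks around the Rag1 start. The highest scored 424.7 and covered 486 to 1405 bp inside the gene, in the first intron and under both histone marks. A second, with a score of 339.3, covered 886 to 1597 bp before the start and overlapped neither an H3K27ac peak nor an H3K4me3 region. The peak over the start itself was near the bottom of the list, with a score of 95.29 that exceeded 5.6% of all Pax5 peaks. A further weak Pax5 peak (score 92.7) lay 16.0 kb upstream and overlapped an H3K27ac peak that scored 6.66, with another of 5.26 at 16.9 kb. An H3K4me3 region of 250 bp lay 3.3 kb upstream without either. The next gene, Traf6, started 28897 bp upstream with all 3 lists at its start, its Pax5 peak scoring 92.3.

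The body of Rag1 carried little beyond its first intron. The long coding exon of Rag1 (6528 bp) was covered by H3K27ac over 575 bp, in peaks that scored 5.82 and 5.41, by H3K4me3 over 175 bp and by no Pax5 peak. All of these lay within 6665 bp of the start, at the end of the exon nearest to it. Which bases of Rag1 the knockout allele lacks was not analysed here.

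At the start of Rag2, H3K27ac peaks scored 14.55 and 5.26, and the higher was above 21.2% of genes with a peak at a start. The H3K4me3 region was 1700 bp wide, above 63.9% of genes. A Pax5 peak with a score of 333.0 lay over the start and overlapped both marks, a higher score than that of the peak over the Rag1 start (95.29) and a lower one than that of the peak in the Rag1 intron (424.7). Inside the gene 1 further H3K27ac peak (10.18) and a 325 bp H3K4me3 region lay 4.0 kb from the start, where shorter B230118H07Rik transcripts begin, and the exon that codes for the Rag2 protein held no entry of any list.

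The stretch upstream of Rag2 held a cluster of marks away from any annotated start. The 4 H3K27ac peaks of the cluster were centred 26.0, 24.6, 23.8 and 23.0 kb before the gene, with scores of 12.30, 7.40, 15.01 and 14.13, and covered 3440 bp. At the far end of the cluster a Pax5 peak with a score of 452.7 (rank 3007 of 15445) and an H3K4me3 region of 550 bp overlapped the H3K27ac peak of 1373 bp. This was the highest Pax5 score of the locus, above both Rag starts. Between the cluster and Rag2 there was 1 H3K27ac peak, with a score of 7.26, at 3.0 kb, within 1 kb of an annotated start of B230118H07Rik. From 30 to 100 kb upstream there were 5 more H3K27ac peaks, centred 59.5 to 62.8 kb away with scores of 5.43 to 12.35, and no H3K4me3 region or Pax5 peak. An enhancer called Erag that acts on both Rag genes in B lineage cells is known from this side of Rag2, but no file used here gives its coordinates, so no peak was assigned to it.

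**Figure D2:**
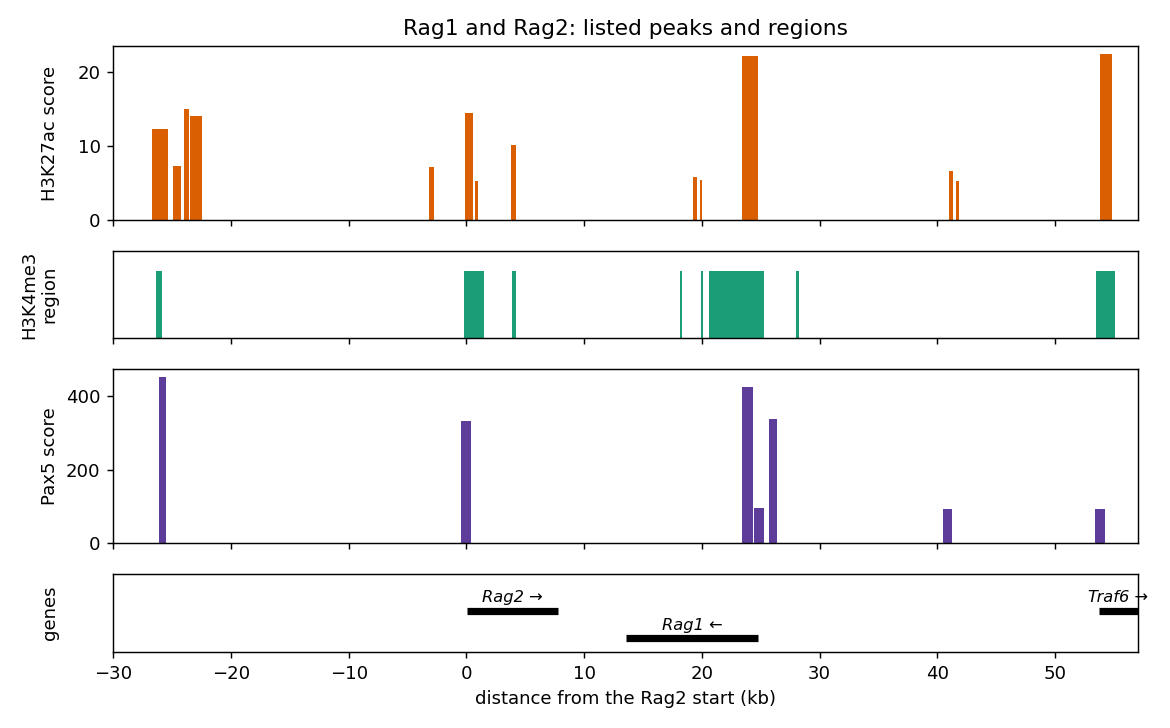
The Rag locus by distance from the Rag2 start (kb), with the scores of H3K27ac peaks (top), H3K4me3 regions without a score (middle) and the scores of Pax5 peaks (below) over the gene bodies, where arrows give the direction of transcription. Bars are as wide as the peaks. The cluster of 4 H3K27ac peaks with a Pax5 peak of 452.7 lies left of Rag2, and the 4700 bp H3K4me3 region covers the start of Rag1.

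Dntt (chr19:41103765-41134013, plus strand) had another layout, with much H3K27ac around the gene and nearly no H3K4me3. Its window held 32 H3K27ac peaks, which covered 28.2% of it, more than in 98.8% of coding genes (median 2.1%). The H3K27ac peak at the start scored 8.15, above only 6.9% of genes with a peak there, and no H3K4me3 region lay within 1 kb. The higher peaks lay to either side. Between 22.8 and 1.2 kb before the start 18 peaks covered 16125 bp, with a median score of 11.87 and a highest of 36.25, and inside the gene 13 peaks covered 8720 bp, the highest 39.80 at 10.1 kb. The remaining peak, the highest at 99.26 and 7698 bp wide, lay at the start of Blnk, a pre-B cell adaptor gene at the edge of the window. The 18 peaks before the Dntt start thus lay between Blnk and Dntt. They, and the covered share of the window that includes them, cannot be assigned to Dntt alone. H3K4me3 was listed 12.9 kb before the start (350 bp), 1.9 kb inside the gene (25 bp, a single bin) and 59.3 kb away (250 bp).

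Pax5 was listed at 3 places around Dntt, none within 1 kb of the start. The peaks scored 370.2 at 12.9 kb upstream, 123.4 at 2.3 kb upstream and 348.2 at 10.0 kb inside the gene. All 3 overlapped H3K27ac peaks, and the last coincided with the highest H3K27ac peak in Dntt. The peaks at 12.9 and 2.3 kb upstream lay between Blnk and Dntt and cannot be assigned to Dntt alone. The central 300 bases of the upstream peak, which also had H3K4me3 (chr19:41090703-41091002, plus strand), and of the intragenic peak (chr19:41113658-41113957, plus strand) are shown for comparison with the Rag peaks, with motif matches in capitals.
Pax5 peak upstream of Dntt: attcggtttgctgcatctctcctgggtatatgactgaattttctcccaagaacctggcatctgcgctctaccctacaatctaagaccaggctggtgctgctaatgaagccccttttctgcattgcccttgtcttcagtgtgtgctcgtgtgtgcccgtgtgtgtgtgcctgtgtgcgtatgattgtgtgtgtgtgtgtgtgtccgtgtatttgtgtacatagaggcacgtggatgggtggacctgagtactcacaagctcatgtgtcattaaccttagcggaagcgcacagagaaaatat
Pax5 peak in Dntt: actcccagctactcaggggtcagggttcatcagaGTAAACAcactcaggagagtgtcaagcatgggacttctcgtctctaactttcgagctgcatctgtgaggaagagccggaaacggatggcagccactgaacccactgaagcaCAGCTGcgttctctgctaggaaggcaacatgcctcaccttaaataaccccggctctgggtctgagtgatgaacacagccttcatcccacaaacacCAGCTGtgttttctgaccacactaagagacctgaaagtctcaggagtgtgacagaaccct

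The intragenic stretch held 1 Foxo match and 2 CAGCTG, and the upstream stretch held none of the 7 motifs.

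**Figure D3:**
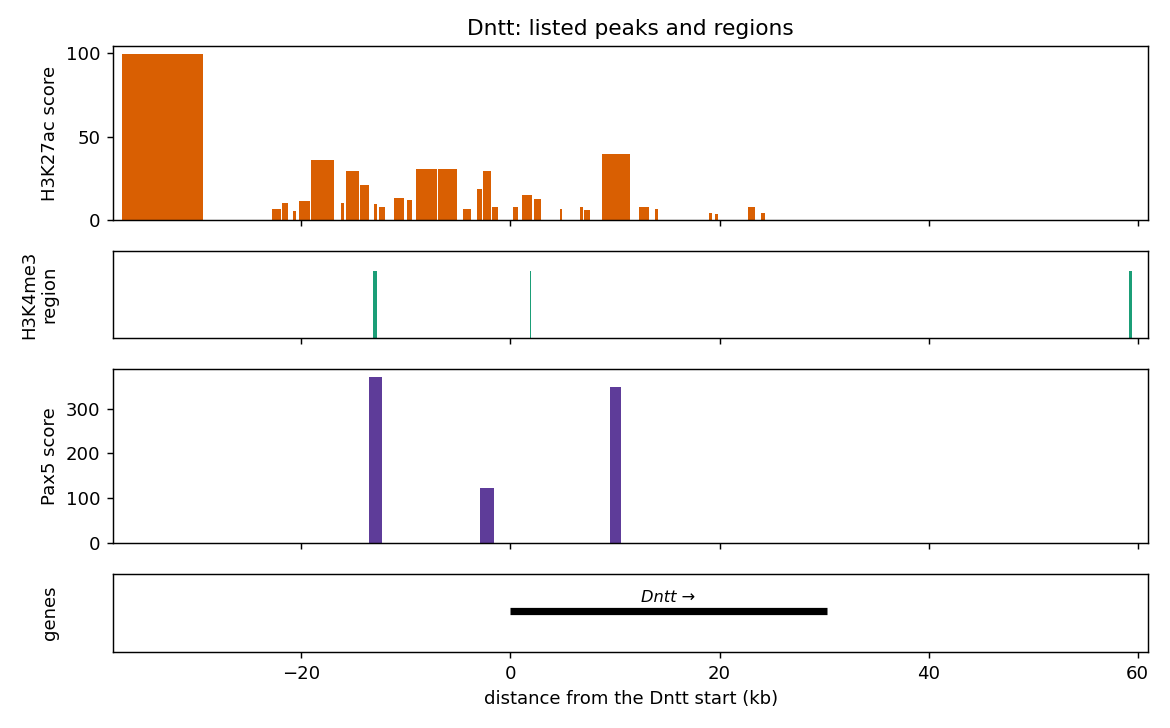
The Dntt window by distance from the Dntt start (kb), with the scores of H3K27ac peaks (top), H3K4me3 regions (middle) and the scores of Pax5 peaks (below) over the gene body. Bars are as wide as the peaks. H3K27ac peaks run from 22.8 kb before the start into the gene, the tall peak at the left edge is at Blnk, and no H3K4me3 bar stands at the start.

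The Ku genes differed from each other. Xrcc6 (chr15:81818265-81870515, plus strand), which encodes Ku70, had the highest Pax5 score of all members, 1324, rank 312 in the list and above 96.9% of genes with Pax5 at a start (median 269). That peak lay over the RefSeq start, as did an H3K4me3 region of 2750 bp (above 93.8% of genes). The best H3K27ac peak, 43.44 (above 63.6%), lay 389 to 1083 bp before that start, beyond the nearby starts of Pppde2. An H3K27ac peak of 23.11 began 43 bp inside Xrcc6. Inside the gene lay 2 more Pax5 peaks, 572.4 at 6.0 kb and 634.8 at 11.6 kb, each within 1 kb of the start of a shorter annotated Xrcc6 transcript. Both overlapped wide H3K27ac peaks, the second a peak of 5163 bp with a score of 36.25. Of its other Pax5 peaks, 378.0 lay at the start of Pmm1, 199.7 at the start of Nhp2l1, and 119.6 at 38.8 kb from the Xrcc6 start, away from any gene start but on H3K27ac. In all, 18.2% of the Xrcc6 window was covered by H3K27ac, more than in 95.5% of genes. That share includes peaks at starts of Pmm1, Nhp2l1 and Pppde2 and cannot be assigned to Xrcc6 alone. Xrcc5 (chr1:72353995-72441526, plus strand), which encodes Ku80, had H3K27ac of 17.59 (above 26.8% of genes), an H3K4me3 region of 1300 bp (above 37.8%) and no Pax5 peak. Away from its start 7 H3K27ac peaks lay in introns 12.4 to 20.8 kb inside the gene, with a median score of 7.38 and a highest of 13.67.

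Both genes for hairpin opening had the full set of marks at the start. Prkdc (chr16:15637959-15842332, plus strand) had H3K27ac of 60.73 and 40.71, an H3K4me3 region of 1950 bp and a Pax5 peak of 481.8, the last above 75.7% of genes. The H3K27ac peak of 60.73 lay 416 to 1319 bp before the start and covered a start of Mcm4 on the opposite strand. The H3K4me3 region and the Pax5 peak covered that Mcm4 start too, so these entries cannot be assigned to Prkdc alone. Inside its long gene body there were only 2 H3K27ac peaks, at 86.2 and 101.1 kb, the higher with a score of 5.26. The other Pax5 peak of its window, 215.4, lay at the start of Mzt2. Dclre1c (chr2:3341403-3381402, plus strand) had an H3K27ac peak of 3042 bp with a score of 74.91 (above 85.6% of genes) and a Pax5 peak of 436.5 (above 71.5%). The H3K27ac peak also covered starts of Meig1 on the opposite strand, the nearest 1483 bp upstream, and an H3K4me3 region of 475 bp and the Pax5 peak lay within 1 kb of that start too, so these entries cannot be assigned to Dclre1c alone. Its H3K4me3 was narrow, with regions of 1075 and 475 bp, the wider above 24.1% of genes. Joining bins across gaps of up to 500 bp merged them into 1775 bp, above 65.8%. The other Pax5 peak of the Dclre1c window, 128.3, lay at the start of Suv39h2.

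The ligation genes were marked at their starts and little elsewhere. Lig4 (chr8:9970020-9977686, minus strand) had the highest H3K27ac score of the members, 103.7, above 93.6% of genes, in a peak centred 1.7 kb inside the gene beside another annotated start. Its H3K4me3 regions were 1725 and 1475 bp wide and its Pax5 peaks scored 472.8 and 198.5, the lower of each pair at the most upstream start. An H3K27ac peak of 7.33 lay 29.4 kb upstream at the start of Tnfsf13b, the gene of the B cell survival factor BAFF. Xrcc4 (chr13:89913632-90229213, minus strand) had H3K27ac of 61.33 (above 78.7% of genes) and 22.92 and an H3K4me3 region of 1575 bp (above 56.0%). The higher peak and the region also covered a start of Tmem167, 485 bp inside Xrcc4, so they cannot be assigned to Xrcc4 alone. No Pax5 peak lay at the Xrcc4 start. Pax5 peaks of 105.5 and 88.3 lay 31.7 and 32.6 kb inside the gene, in an intron and without H3K27ac, and the lower exceeded 0.2% of the Pax5 list.

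Nhej1 (chr1:75013713-75093213, minus strand) was without an entry at any start of the GENCODE annotation, yet its window held 1 entry of each list. These lay together at a different start. The RefSeq promoter sequence of Nhej1 matched mm9 at 1 place, which put the RefSeq start at position 75121800, 28587 bp upstream of the GENCODE start. There an H3K27ac peak of 50.93 (2011 bp), an H3K4me3 region of 1025 bp and a Pax5 peak of 234.8 overlapped. With RefSeq starts, Nhej1 therefore had all 3 lists and the count rose from 6 to 7 members, while no other call changed. This start was looked up after the values had been seen. The 250 bases before it (chr1:75121801-75122050, minus strand) are shown because they locate that start, and beside them those before Dclre1c (chr2:3341153-3341402, plus strand), which hold a motif that the Nhej1 stretch does not.
Nhej1 before the start: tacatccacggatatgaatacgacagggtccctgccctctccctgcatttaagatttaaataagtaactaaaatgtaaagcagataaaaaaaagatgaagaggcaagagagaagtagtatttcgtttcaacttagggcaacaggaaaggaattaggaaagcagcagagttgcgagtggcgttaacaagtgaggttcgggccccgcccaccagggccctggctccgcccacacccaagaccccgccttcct
Dclre1c before the start: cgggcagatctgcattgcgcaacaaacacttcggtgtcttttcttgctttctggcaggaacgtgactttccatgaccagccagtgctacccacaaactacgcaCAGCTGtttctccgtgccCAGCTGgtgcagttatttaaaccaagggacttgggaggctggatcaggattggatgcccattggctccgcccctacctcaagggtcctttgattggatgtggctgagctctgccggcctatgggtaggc

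The capitals mark CAGCTG, present at 2 places before Dclre1c and absent before Nhej1, and none of the other motifs was in either stretch.

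**Figure D4:**
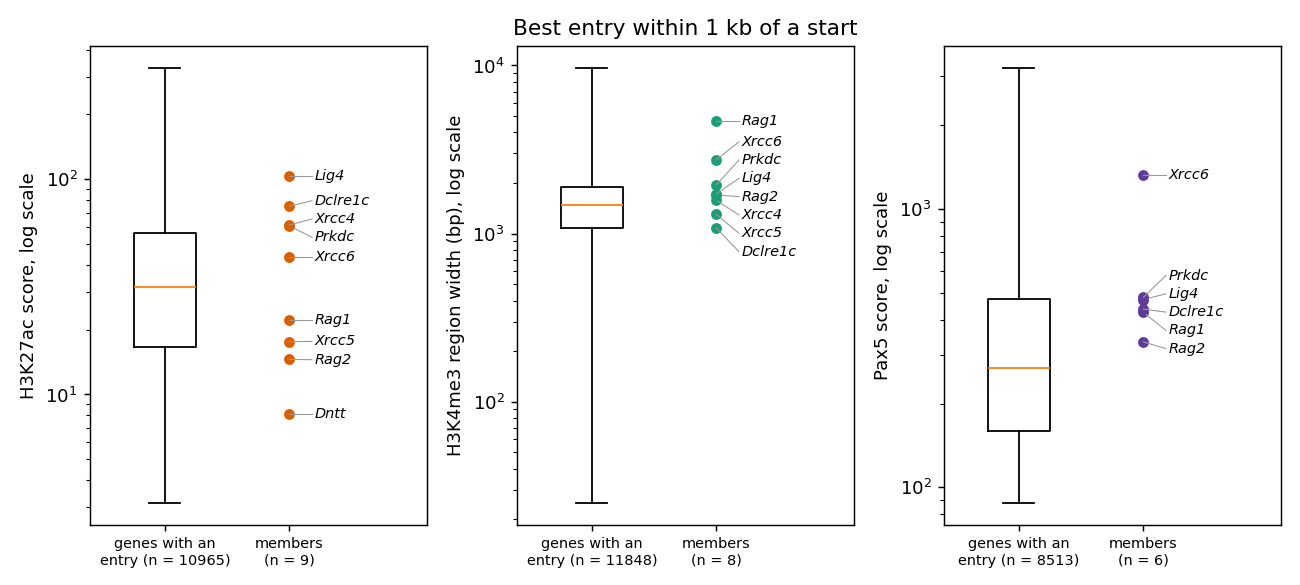
Best H3K27ac score, widest H3K4me3 region (bp) and best Pax5 score within 1 kb of an annotated start, on log axes. Boxes give the quartiles and whiskers the lowest and highest value over all coding genes with an entry there, and points are the members with one. Dntt, Rag2, Xrcc5 and Rag1 are lowest for H3K27ac, Rag1 is highest for H3K4me3 width, and Xrcc6 stands above the other members for Pax5.

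Side by side, the best H3K27ac scores within 1 kb of a start put the 3 lymphoid genes at the low end of the members. These scores were 8.15 for Dntt, 14.55 for Rag2 and 22.13 for Rag1. Among the other members with a peak, Xrcc5 (17.59) fell within that range and the remaining 5 ran from 43.44 to 103.7. Nhej1 reached 50.93 at its RefSeq start. Not all of these best peaks lay at the start used for distances. The peak over that start scored 14.09 for Lig4 and 40.71 for Prkdc, and the one beginning 43 bp inside Xrcc6 scored 23.11. The best peak of Dclre1c (74.91) did lie over that start, and the best peak of Xrcc4 (61.33) began 52 bp inside the gene. The distance to the lymphoid genes therefore depended on which peak was taken. For Pax5 the order was Xrcc6, Prkdc, Lig4, Dclre1c, Rag1 and Rag2, but the middle 4 ran only from 424.7 to 481.8. With 1 library a list there is no spread against which such neighbours can be told apart.

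The base composition of the starts fell into separate ranges. In the 300 bases from 250 before to 50 after the start, the ratio of observed to expected CpG dinucleotides was 0.15 for Dntt, 0.16 for Rag1 and 0.22 for Rag2. It was 0.51 to 0.53 for Dclre1c, Nhej1 and Xrcc5, and 0.93 to 1.04 for Prkdc, Lig4, Xrcc4 and Xrcc6. The latter 4 were also the members with the start of another coding gene on the opposite strand within 500 bp upstream, against 9.38% of all coding genes. These neighbours were Mcm4 for Prkdc (466 bp), Abhd13 for Lig4 (27 bp), Tmem167 for Xrcc4 (126 bp) and Pppde2 for Xrcc6 (144 bp). Entries between such pairs cannot be assigned to either gene. Of coding genes with a CpG ratio under 0.30 at the most upstream GENCODE start, 13.8% had H3K4me3 within 1 kb of a start, against 72.1% of the others. By that rule 5 members fell under 0.30, of which Rag1, Rag2 and Xrcc6 had H3K4me3 and Dntt and Nhej1 did not. Xrcc6 and Nhej1 were there only through a most upstream GENCODE start that differs from the RefSeq start. Rag1 and Rag2 thus paired CpG-poor starts with H3K4me3, of 4700 and 1700 bp.

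**Figure D5:**
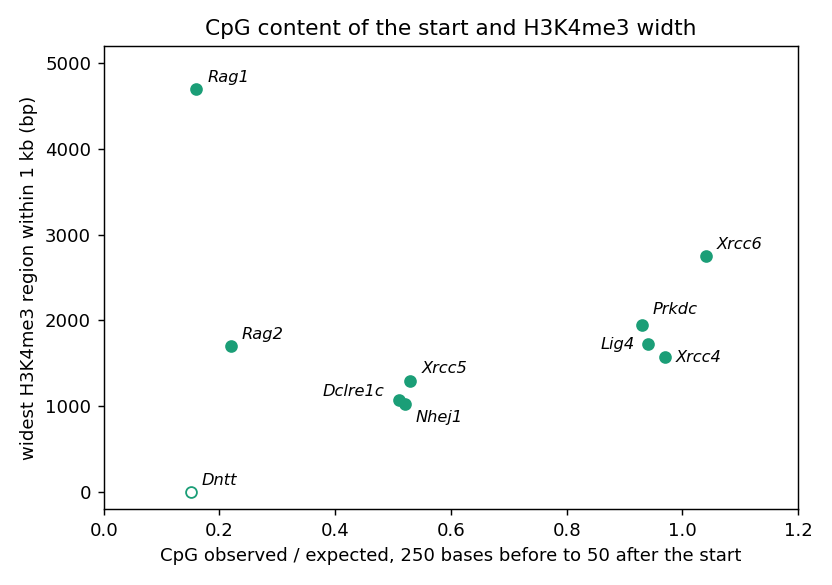
Ratio of observed to expected CpG in the 300 bases around the start (horizontal axis) against the widest H3K4me3 region within 1 kb (bp, vertical axis) for the 10 genes, with RefSeq starts and the GENCODE start for Prkdc. The open point is Dntt, which has no region. Rag1, at a ratio of 0.16, has the widest region, 4700 bp, and the 4 genes at ratios over 0.9 lie between 1575 and 2750 bp.

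No motif was in the promoters of more than 3 of the 10 members. Some motifs lay above their share of all RefSeq promoters and others below it. CAGCTG was in the 300-base promoters of 3 of the 10 (Rag1, Lig4 and Dclre1c), against 16.3% of 32851 RefSeq promoters, CAGGTG in 1 (Rag1) against 20.2%, and the Foxo letters in 1 (Prkdc) against 3.65%. The ETS and Ikaros letters were each in 1, Rag1, against 9.35% and 25.6%. The Pax5 core and the Ebf1 letters were in none, against 2.09% and 13.7%. In the central 300 bases of the 25 Pax5 peaks, CAGCTG occurred in 9 and CAGGTG in 6, each present in 24.4% of all 15445 Pax5 peaks. Foxo letters occurred in 3 against 3.09%, Ikaros letters in 6 against 19.1%, ETS letters in 2 against 11.2%, Ebf1 letters in 1 against 18.2% and the Pax5 core in 1 against 5.72%. These peaks share loci and are not independent of each other.

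Across the windows, 22 of the 25 Pax5 peaks overlapped H3K27ac, near the 79.3% of the whole list. Counted by the midpoint of each peak, 15 did, a rule for which the share of the whole list was not computed. The 3 without any overlap were the peak before Rag1 (339.3) and both intronic peaks of Xrcc4. At the GENCODE starts of members lay 11 of the 25, and 9 lay over 1 kb from every annotated start. Among the 9 was the Nhej1 peak (234.8), which lay at the RefSeq start of that gene. Of the 104 H3K27ac peaks 62 lay over 1 kb from every annotated start, against 70.6% of that whole list. Of the 62, 34 were those around Dntt and in the cluster upstream of Rag2, and another was the Nhej1 peak (50.93) at its RefSeq start.

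Nearly all related repair genes were marked at their starts. Of 6 annotated RAG cofactors and accessory joining factors (Hmgb1, Hmgb2, Polm, Poll, Aptx and Aplf), all 6 had H3K27ac, H3K4me3 and Pax5 within 1 kb of a start. Of 10 genes of the break response, among them Atm and Trp53bp1, all 10 had both histone marks and 7 had Pax5, which was missing from Rnf8, Rnf168 and Rif1. Of 6 genes of alternative end joining, all 6 had both marks and 5 had Pax5, which was missing from Polq. These lists are read against the same shares of coding genes as above, 49.0%, 53.0% and 38.1%.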

How the data were processed

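ChIP-seq lists for H3K27ac, H3K4me3 and Pax5 in pre-B cells were used, 1 library each, and the 3 input samples were not used here. Per the submitters' processing notes, the authors aligned reads with Bowtie 0.12.9 to mm9 and used MACS 1.4.2. As deposited, the H3K27ac and Pax5 lists give each MACS peak a score whose scale is not named, Pax5 having been called against input per the file headers, and peaks were not pooled over libraries. The H3K4me3 list gives positions of enriched 25 bp bins and its caller is not given in the sources used here. The peak calling threshold differs between lists, so their numbers of entries are not compared.

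Bins separated by gaps of up to 100 bp were joined into regions. Entries were assigned by an overlap of at least 1 bp to GENCODE M1 genes (body plus 30 kb each side) and to within 1 kb of every annotated start, with Python 3.11.15, pysam 0.24.0 and numpy 2.4.6. The same rule applied to all 22367 protein-coding genes gave the shares printed beside the members. Windows were merged where they overlapped. RefSeq promoter sequences (table build GRCm38.p6) of 9 of the 10 members matched mm9 at 1 place each and placed their RefSeq starts, and the GENCODE start was used for Prkdc. Distances are from that start to the centre of an entry unless a range is given. Overlap counting was tested on simulated intervals. Every member was named, and entries were described singly at the starts, for Pax5, and upstream of the Rag genes. The members, lists and motifs were chosen with earlier results of these data known. Some genes of these lists are not reported here. No test was run, as each list is 1 library. Alternatives were other flanks, start distances, gaps, a higher-scoring part of each list and RefSeq starts, the last chosen after seeing the data.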

Additional observations from a re-analysis of the deposited data

How the results depend on the processing

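Of 82 alternative values for 17 results, 69 lay within 1.5 times the reported value and 13 moved further, all of them counts or shares that follow the length of the list or of the window. With only the higher-scoring 50% of each scored list, H3K27ac peaks in the windows fell from 104 to 53 and those over 1 kb from every start from 62 to 23, Pax5 peaks from 25 to 15 and those on H3K27ac from 22 to 14, and the share of coding genes with Pax5 near a start from 38.1% to 23.7%. Within that tolerance, Pax5 peaks on H3K27ac fell from 22 to 15 when peaks were placed by their midpoint, and H3K27ac peaks from 104 to 71 with flanks of 10 kb. With flanks of 10 kb there were also 16 Pax5 peaks, 13 of them on H3K27ac, and 40 H3K27ac peaks away from starts. With flanks of 100 kb there were 180 H3K27ac peaks (107 away from starts), 52 H3K4me3 regions and 50 Pax5 peaks (45 on H3K27ac). Over all alternatives run, members marked at a start numbered 8 to 10 for H3K27ac, 7 to 9 for H3K4me3 and 5 to 7 for Pax5. No paired analysis was possible because no mark has a second library and no test was made. The unknown depth limits what an absent peak means: a start without an entry had none past the threshold of its list.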
